A study of Rattus norvegicus with 6 samples.

Results

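The ErbB and MET growth factor system of rat liver is described here by 10 genes: the ErbB ligands Nrg1, Egf, Tgfa, Areg and Hbegf, the ErbB receptors Egfr, Erbb2 and Erbb3, the MET ligand Hgf and its receptor Met. They were taken as every non-control probe whose RefSeq accession belongs to 1 of these genes, which gave 21 probes among 61657 on the array and 10 genes among 15284 with a named probe. Liver RNA came from 6 male Sprague-Dawley rats, 1 array per rat. The 3 ADBAQ rats had been dosed with 1-amino-2,4-dibromoanthraquinone (ADBAQ), a brominated anthraquinone dye intermediate, at 1000 mg/kg/day. The 3 vehicle rats had been given the carrier alone, which is purified water in the sample characteristics but corn oil in the treatment protocol. Exposure is given as 28 days in the design text and as 9 weeks in the treatment protocol, and all rats were bought at 5 weeks of age. The labels give no genotype or further agent, and whole liver was taken, so a value is the sum over all its cell types.

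ErbB receptors are tyrosine kinases that pair when a ligand binds. EGF, TGF alpha, amphiregulin and HB-EGF bind the EGF receptor, whereas neuregulins bind ErbB3 and ErbB4, and ErbB2 has no ligand of its own and serves as a partner. ErbB3 has little kinase activity and signals mainly through PI3 kinase once a partner has phosphorylated it. HGF, made in liver mainly by stellate and endothelial cells, is secreted as an inactive precursor and binds MET on hepatocytes. Together EGF receptor and MET ligands are the main mitogens of hepatocytes, and the ErbB2 with ErbB3 pair is a common route of neuregulin signalling in epithelial cells.

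Every value below is a relative signal, the processed Cy3 signal of a probe divided by the 75th percentile of its array, and changes are log2 fold changes, ADBAQ minus vehicle, with the SE from limma. A probe was tested if the scanner software had marked it well above background in every rat of either group, and called if its limma p, adjusted by Benjamini-Hochberg over the 38695 probes tested, was under 0.05. The 75th percentile was between 570 and 643 on the ADBAQ arrays and between 433 and 461 on the vehicle arrays, and no probe was saturated. Each group had a slide and a scan day of its own, so slide, scan day and treatment cannot be told apart. Levels of different probes are not compared, since each probe has its own brightness.

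Sequence is shown for the upstream regions of Egfr and Egf, the receptor and the ligand of the family with a probe called lower, and of Errfi1, an inhibitor of the EGF receptor that was lower too. Each is the 250 bases before the gene start in RefSeq's table on GRCr8, written on the gene's strand; Egfr is chr14:95378376-95378625 on the plus strand, Egf is chr2:220976298-220976547 on the minus strand and Errfi1 is chr5:166606591-166606840 on the plus strand. Capitals mark the core motif of the aryl hydrocarbon receptor (GCGTG, or CACGC on the other strand), the GC box (GGGCGG or CCGCCC) and the TATA box (TATAAA, or TTTATA on the other strand).
Egfr: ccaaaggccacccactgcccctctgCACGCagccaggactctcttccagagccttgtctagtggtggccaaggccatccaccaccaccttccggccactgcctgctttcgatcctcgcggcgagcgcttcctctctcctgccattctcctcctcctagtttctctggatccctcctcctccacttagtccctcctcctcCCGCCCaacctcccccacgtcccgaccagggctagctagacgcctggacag
Egf: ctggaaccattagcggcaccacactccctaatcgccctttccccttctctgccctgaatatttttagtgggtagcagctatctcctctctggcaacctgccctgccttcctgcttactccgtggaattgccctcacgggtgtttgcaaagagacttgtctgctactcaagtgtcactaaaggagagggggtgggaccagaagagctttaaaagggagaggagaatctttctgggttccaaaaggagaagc
Errfi1: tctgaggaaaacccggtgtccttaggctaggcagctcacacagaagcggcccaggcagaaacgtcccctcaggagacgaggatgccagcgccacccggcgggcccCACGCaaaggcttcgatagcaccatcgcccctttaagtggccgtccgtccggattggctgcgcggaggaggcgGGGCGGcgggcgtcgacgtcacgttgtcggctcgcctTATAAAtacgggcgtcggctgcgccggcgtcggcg
The Egfr window held 1 GCGTG match, 225 bases before the start, and 1 GC box, 51 bases before it, and no TATAAA. The Egf window held none of the 3 motifs. The Errfi1 window held each of them, with TATAAA 35 bases before the start. Nrg1 and Erbb3 have no entry in the promoter table, so the upstream region of Nrg1 could not be shown and neither gene is counted. Of the 8 members found in the promoter table, 4 had GCGTG, 4 had the GC box and 1 had TATAAA. Over all 33469 promoters of the table the shares were 25.9% for GCGTG, 30.5% for the GC box and 12.9% for TATAAA. These are matches of letters and not evidence of binding.

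ADBAQ rats were compared with vehicle rats to see how the chemical alters liver transcripts, and within the family the largest difference was in neuregulin 1. Nrg1 was higher on all 3 of its probes, 10.3-fold on the brightest. Egf was lower, 1.49-fold on its brighter probe, and Egfr was lower, 1.62-fold on the one of its 2 probes that passed the test. Of the 10 members 9 had a tested probe, and 5 of 18 tested probes were called, those of Nrg1 higher and 1 each of Egf and Egfr lower, where 18.4% of all tested probes were called. The groups did not overlap on 7 of the 18, where this held for 43.0% of all tested probes. Read at the brightest tested probe of each gene, 2 of 9 members were called, a share of 22.2% against 20.3% of all 11344 genes tested. In that count 1 member was higher and 1 lower, beside 9.05% and 11.3% of all genes, and the groups did not overlap for 3 members, beside 46.3% of all genes. The family as a whole was thus called about as often as other genes, and its median change of -0.08 stood beside -0.04 for all genes.

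**Figure D1:**
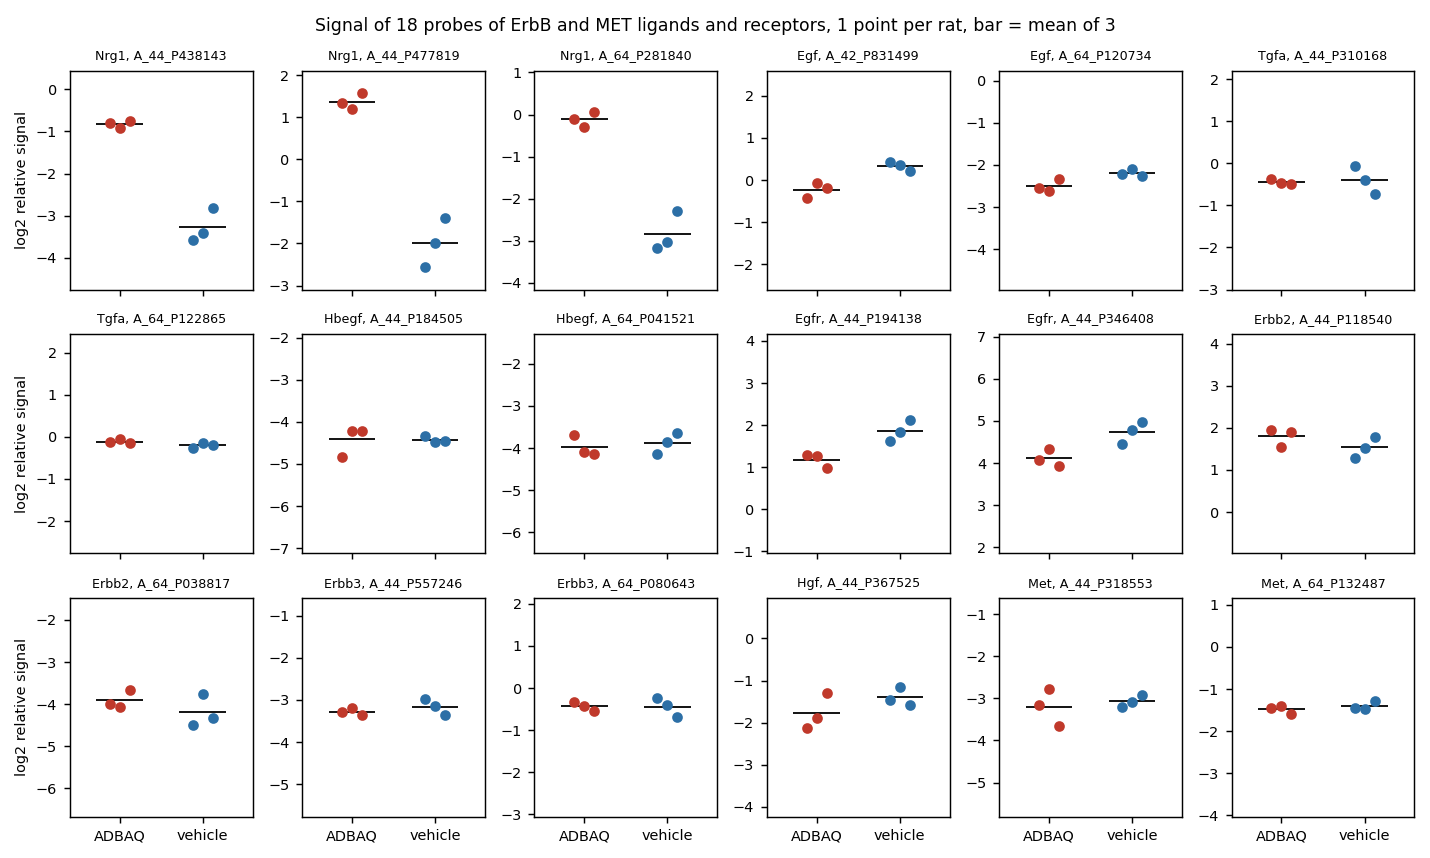
Log2 relative signal (vertical axis, each panel spanning the same range of log2 units) of the 18 tested probes, with 1 point per rat and a bar at the mean of 3, ADBAQ in red and vehicle in blue. The 3 Nrg1 panels show the ADBAQ rats far above the vehicle rats, the Egf and Egfr panels show them below, and the points overlap in the other 11 panels.

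Neuregulin 1, encoded by Nrg1, is a ligand of ErbB3 and ErbB4. Its brightest probe, A_44_P477819, had relative signals of 2.53, 2.30 and 2.98 in the ADBAQ rats, against 0.169, 0.252 and 0.378 in the vehicle rats. The lowest ADBAQ rat lay several times above the highest vehicle rat, and the probe was well above background on all 6 arrays. The log2 fold change was 3.36 ± 0.29 (SE, n = 3 rats per group; limma adjusted p = 0.00304), which placed Nrg1 at rank 27 among the 1027 genes called higher. On A_64_P281840 the relative signals were 0.923, 0.820 and 1.04 with ADBAQ, against 0.111, 0.123 and 0.204 with vehicle (2.71 ± 0.24, adjusted p = 0.00318). On A_44_P438143 they were 0.577, 0.528 and 0.597 with ADBAQ, against 0.0843, 0.0940 and 0.142 with vehicle (2.45 ± 0.20, adjusted p = 0.00275). The rats kept the same places on all 3 probes: ADBAQ replicate 2 was the lowest and replicate 3 the highest of its group, and vehicle replicate 1 was the lowest and replicate 3 the highest of its group. All 3 probes are assigned to the same transcript and were read in the same rats, so they are not independent and give no separate evidence on isoforms. Which forms of the RNA each probe detects was not tested. The size depends on how background is removed: with normexp correction the 3 changes were 2.78, 1.71 and 1.54, still called.

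Egf encodes epidermal growth factor. Its brighter probe, A_42_P831499, had relative signals of 0.746, 0.947 and 0.873 in the ADBAQ rats, against 1.34, 1.29 and 1.17 in the vehicle rats. Every ADBAQ rat lay below every vehicle rat, and the change was -0.57 ± 0.12 (adjusted p = 0.0255), at rank 806 among the 1281 genes called lower. The second probe, A_64_P120734, had 0.171, 0.163 and 0.199 with ADBAQ, against 0.216, 0.233 and 0.209 with vehicle. Its groups did not overlap either, but its change of -0.31 ± 0.11 did not pass the threshold (adjusted p = 0.0983). Omitting ADBAQ replicate 1, ADBAQ replicate 3, vehicle replicate 1 or vehicle replicate 2 ended the call on the brighter probe, with adjusted p-values of 0.0653 to 0.0688.

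The other EGF receptor ligands gave no call in relative signal. Over the 6 tested members with no call, 0 of 11 probes had an unadjusted limma p under 0.05, the lowest being 0.160. These members were picked for having no call, so that count cannot be set against a share of all genes. Read at 1 probe per gene, 3 of the 9 tested members had an unadjusted limma p under 0.05, beside 4343 of all 11344 genes tested. Tgfa, which encodes transforming growth factor alpha, had 0.917, 0.960 and 0.901 with ADBAQ, against 0.832, 0.902 and 0.880 with vehicle, on its brighter probe. Its groups overlapped, and the interval of the change ran from -0.12 to 0.29 on that probe and from -0.47 to 0.39 on the other. Hbegf, which encodes heparin-binding EGF-like growth factor, had 0.0772, 0.0590 and 0.0567 with ADBAQ, against 0.0570, 0.0687 and 0.0794 with vehicle, on its brighter probe. Its intervals ran from -0.51 to 0.33 and from -0.44 to 0.45, so the data allow a fall of up to 1.42-fold and a rise of up to 1.36-fold. Areg, the amphiregulin gene, had 1 probe, and it was not well above background on any of the 6 arrays (0.00461, 0.00460 and 0.00478 with ADBAQ, against 0.00584, 0.00604 and 0.00656 with vehicle). It was therefore not tested, and no difference is read from values this dim.

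Among the ErbB receptors, Egfr had lower values in ADBAQ rats on both probes. On A_44_P194138 the relative signals were 2.43, 2.39 and 1.98 with ADBAQ, against 3.09, 3.57 and 4.39 with vehicle, a change of -0.69 ± 0.16 (adjusted p = 0.0327). On the brighter A_44_P346408 they were 16.9, 20.3 and 15.3 with ADBAQ, against 22.0, 27.5 and 31.6 with vehicle, and the change of -0.62 ± 0.17 missed the threshold (adjusted p = 0.0527). The groups did not overlap on either probe, and ADBAQ replicate 3 was the lowest and vehicle replicate 3 the highest of the 6 rats on both. Leaving out any 1 array other than vehicle replicate 1 ended the call of A_44_P194138, with an adjusted p between 0.0664 and 0.0910. Without vehicle replicate 1 both probes were called, at -0.81 and -0.76.

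Erbb2 and Erbb3 encode a receptor pair that neuregulin 1 uses. Erbb2, on its brightest probe, had 3.87, 2.93 and 3.72 with ADBAQ, against 2.45, 2.88 and 3.43 with vehicle. These groups overlapped, and the change was 0.27 ± 0.17 with an interval from -0.14 to 0.67 (adjusted p = 0.299). Its second tested probe gave 0.28 ± 0.21 (adjusted p = 0.387), and its other 2 probes were too dim to be tested. Erbb3 had 0.796, 0.747 and 0.690 with ADBAQ, against 0.853, 0.754 and 0.622 with vehicle, on its brighter probe. The groups overlapped and the change was 0.01 ± 0.14, with an interval from -0.32 to 0.35, and the second probe had -0.12 ± 0.12. Receptor transcripts for Nrg1 were thus measured in both groups, with no called change in relative signal.

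The MET arm gave no call in relative signal. Hgf, which encodes hepatocyte growth factor, had 0.230, 0.269 and 0.409 with ADBAQ, against 0.366, 0.451 and 0.332 with vehicle, on its only probe. ADBAQ replicate 3 lay among the vehicle rats, and the change of -0.37 ± 0.24 had an interval from -0.94 to 0.20 (adjusted p = 0.302). Met, its receptor, had 0.369, 0.378 and 0.333 with ADBAQ, against 0.369, 0.360 and 0.412 with vehicle, on the brighter probe. The Met groups overlapped on both probes, with changes of -0.08 ± 0.10 and -0.12 ± 0.23. The wide interval of Hgf leaves room for a fall of up to 1.92-fold.

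**Figure D2:**
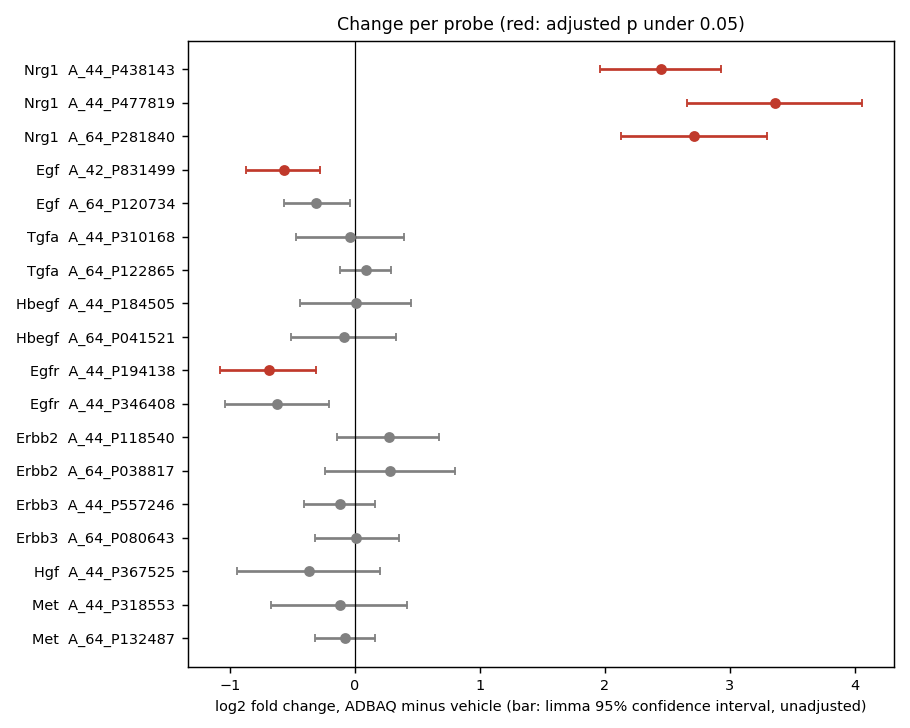
Log2 fold change, ADBAQ minus vehicle (horizontal axis), of each tested probe with its unadjusted 95% confidence interval from limma, in red where the adjusted p was under 0.05. The 3 Nrg1 probes lie between 2.45 and 3.36, the Egf and Egfr probes between -0.69 and -0.31, and the intervals of the other 11 probes include 0.

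The changes so far are relative to the 75th percentile. Scaled instead to the spike-in controls of each array, the median of all genes lay at 0.78, and on that scale Nrg1 was still called higher (3.26 to 4.18 over its probes) while the sign of Egf (0.24 and 0.51) and of Egfr (0.13 and 0.20) turned, so their fall is a fall relative to the other genes of the array.

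Around the family stood 88 pathway genes in 5 lists, of which 72 were measured, 5 were called higher and 8 lower, a share of 18.1% against 20.3% of all genes. The list of other ErbB and MET-family ligands and receptors had 3 of 9 genes measured, 1 called higher and 1 lower (66.7%). Nrg2, a second neuregulin, had 0.699, 0.679 and 0.765 with ADBAQ, against 0.356, 0.407 and 0.456 with vehicle. It rose by 0.82 ± 0.12 (adjusted p = 0.0101) on its only tested probe, and its other 4 probes were too dim to be tested. Mst1, encoding macrophage-stimulating protein, the HGF relative that binds the receptor encoded by Mst1r, averaged 74.6 ± 4.97 with ADBAQ, against 105 ± 2.35 with vehicle (SD, n = 3 each), with no overlap (-0.50 ± 0.09, adjusted p = 0.0170). On the spike-in scale it was called in the opposite direction (0.32, adjusted p = 0.0235). Its call was lost without ADBAQ replicate 1 or 3 (adjusted p = 0.0610 and 0.0580). Nrg4 was measured and not called (-0.31 ± 0.14, adjusted p = 0.170, named after its value was seen). No probe of Btc, Ereg, Erbb4 or Mst1r was bright enough to be tested, so of the 2 receptors that bind neuregulins Erbb3 alone was measured.

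Of 12 measured genes for the release and activation of ligands, 2 were called higher and 2 lower (33.3%, against 20.3% of all genes), with a median of 0.01. Rhbdf2, the gene of iRhom2, which brings the sheddase ADAM17 to the cell surface, had 1.72, 1.48 and 2.42 with ADBAQ, against 0.952, 0.907 and 0.902 with vehicle. It rose by 0.99 ± 0.19 (adjusted p = 0.0188), a call lost without ADBAQ replicate 1 or vehicle replicate 2 or 3 (adjusted p from 0.0534 to 0.0563), and its other 2 probes had 0.79 and 0.59, neither called. The Rhbdf2 call was also lost as the mean of its probes (0.79, adjusted p = 0.0585). Spint1, encoding an inhibitor of the protease that activates HGF, had a dim probe, with 0.0766, 0.0652 and 0.0878 with ADBAQ, against 0.0293, 0.0318 and 0.0378 with vehicle. It entered the test through the ADBAQ group alone, since 1 of 3 vehicle arrays had it well above background. Its call (1.21 ± 0.15, adjusted p = 0.00749) was lost with normexp correction, where the change was 0.03 (adjusted p = 0.763). Neither a difference in Spint1 nor its size is therefore settled by these arrays. Hgfac, the gene of that activating protease, had 19.0, 21.0 and 22.9 with ADBAQ, against 37.7, 31.7 and 27.0 with vehicle (-0.61 ± 0.15, adjusted p = 0.0386; 0.21 on the spike-in scale). The call of Hgfac was lost without any 1 array other than vehicle replicate 3, with an adjusted p of up to 0.114. The related inhibitor gene Spint2, named after its value was seen, was called lower on 1 of its 2 tested probes, the brighter (-0.47 ± 0.10, adjusted p = 0.0253). Adam17 itself had a change of 0.02 ± 0.12 and was likewise named after its value was seen.

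Of 18 measured genes for receptor turnover and feedback, 1 was called lower and none higher, 5.56% against 20.3% of all genes. Of the 18, 3 had an unadjusted limma p under 0.05, beside 4343 of all 11344 genes tested. The called gene was Errfi1, whose product MIG6 binds and inhibits the kinase of the EGF receptor. It had 142, 145 and 103 with ADBAQ, against 248, 241 and 225 with vehicle, a change of -0.89 ± 0.15 (adjusted p = 0.0148). Its groups did not overlap, and the call held without each array (highest adjusted p = 0.0448), while on the spike-in scale it was -0.07 (adjusted p = 0.671). The ERK phosphatase gene Dusp6 (-0.71 ± 0.22, adjusted p = 0.0694) and the feedback inhibitor gene Spry2 (0.50 ± 0.21, adjusted p = 0.144), both named after their values were seen, did not pass the threshold.

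Of 30 measured adaptor and signalling genes, 1 was called higher and 2 lower (10%, against 20.3% of all genes), with a median of -0.04. Pak1, a kinase activated by the small GTPases Rac and Cdc42, had 1.79, 2.09 and 2.11 with ADBAQ, against 0.647, 0.635 and 0.544 with vehicle (1.72 ± 0.12, adjusted p = 0.00148). Grb7, an adaptor that binds ErbB2 and ErbB3, had 4.12, 4.34 and 4.34 with ADBAQ, against 9.52, 10.1 and 11.1 with vehicle (-1.26 ± 0.09, adjusted p = 0.00191), and its second probe had -0.39 ± 0.13 and was not called. Both calls held under every alternative run, but the change of Grb7 shrank to -0.44 on the spike-in scale and to -0.83 as the mean of its probes. Pik3r1, encoding a regulatory subunit of PI3 kinase, had 0.875, 0.881 and 0.557 with ADBAQ, against 1.18, 1.76 and 2.14 with vehicle (-1.12 ± 0.28, adjusted p = 0.0393), and its second probe was lower too (-0.87 ± 0.17, adjusted p = 0.0227). The Pik3r1 call on the brighter probe was lost without any 1 array other than vehicle replicate 1, with an adjusted p of up to 0.0970, and on the spike-in scale (-0.31, adjusted p = 0.282).

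Of 9 measured surface partners of the receptors, 1 was called higher and 2 lower (33.3%, against 20.3% of all genes). Cd44, whose variant forms act as a co-receptor of MET, rose by 1.02 ± 0.12 (adjusted p = 0.00683), with 0.546, 0.514 and 0.540 in ADBAQ rats, against 0.223, 0.292 and 0.278 in vehicle rats. A second Cd44 probe rose by 0.84 ± 0.14 (adjusted p = 0.0128) and another, at -0.18 ± 0.18, was not called. The heparan sulphate proteoglycan genes Sdc4 (-0.68 ± 0.11, adjusted p = 0.0128) and Sdc2 (-0.45 ± 0.11, adjusted p = 0.0382) were lower, and both signs turned on the spike-in scale, to 0.14 for Sdc4 with no call and to 0.37 for Sdc2, which was then called higher (adjusted p = 0.0161). A second Sdc4 probe had -0.16 ± 0.15, and the Sdc2 call was lost without any 1 array (adjusted p from 0.0619 to 0.114).

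**Figure D3:**
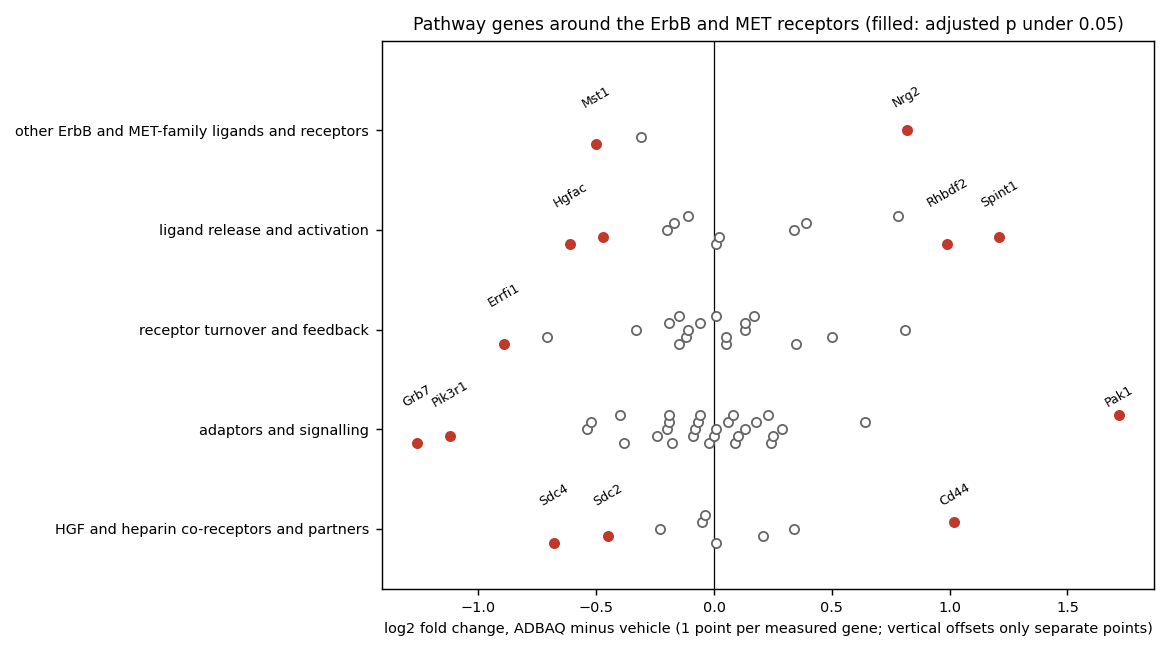
Log2 fold change, ADBAQ minus vehicle (horizontal axis), of the 72 measured pathway genes in 5 lists, 1 point per gene, filled where the adjusted p was under 0.05 and labelled for the 12 called genes with the largest changes in their own lists. Filled points lie on both sides of 0 in 4 lists, and the turnover and feedback list has a single one, Errfi1 at -0.89.

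In whole liver, fewer cells of a type and less RNA per cell cannot be told apart, so marker genes of the liver's cell types are given beside these results. For comparison, 9.05% of all 11344 genes tested were called higher and 11.3% lower, and 4343 had an unadjusted limma p under 0.05. Hepatocytes, the main source of Egfr, Mst1 and Hgfac transcripts in liver, had 6 of 8 markers called lower and none higher, and their summed relative signal was 4600 to 4940 with ADBAQ, against 6000 to 6530 with vehicle. These falls, with a median of -0.47, are relative to the 75th percentile. On the spike-in scale the median of all genes lay at 0.78 and Egfr, Mst1 and Hgfac turned sign, and the marker sums were not taken on it. The stellate cell list, a source of Hgf, had 1 of 10 markers called, lower in ADBAQ rats, with 8 of 10 changes below 0 and a median of -0.27. Hgf itself gave no call, and the interval of its change included 0. Without the called marker, which is not reported here and is the brightest of the list, the summed signal was 23.3 to 26.1 with ADBAQ, against 25.7 to 35.6 with vehicle, a sum chosen after the data were seen. Of 7 measured endothelial markers 1 was lower, Oit3, with sums of 40.3 to 49.5 with ADBAQ, against 48.7 to 53.8 with vehicle. Cholangiocyte markers, which cover bile duct and progenitor-type cells, had 3 of 8 called higher (Cftr, Epcam and Prom1) and 1 lower (Krt7), with sums of 3.71 to 5.32 with ADBAQ, against 2.87 to 3.08 with vehicle. Without Epcam, the brightest of that list, the sums overlapped, at 1.99 to 2.82 with ADBAQ, against 1.82 to 2.02 with vehicle. That sum too was chosen after the data were seen. Of 10 Kupffer cell markers 0 were called by limma, and 0 had an unadjusted p under 0.05 (sums of 124 to 141 with ADBAQ, against 117 to 144 with vehicle), and 1 of 10 lymphocyte and neutrophil markers was called, Cd8a, which was lower (sums of 4.57 to 6.06 with ADBAQ, against 3.89 to 5.49 with vehicle). The called shares of the endothelial (14.3%), stellate (10%) and lymphocyte and neutrophil (10%) lists, all lower, were near the 11.3% of all genes called lower. The labelled tissue had its hepatocyte markers on all arrays. The part of these shifts in the Nrg1, Egf, Egfr, Hgf and pathway results was not tested.

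**Figure D4:**
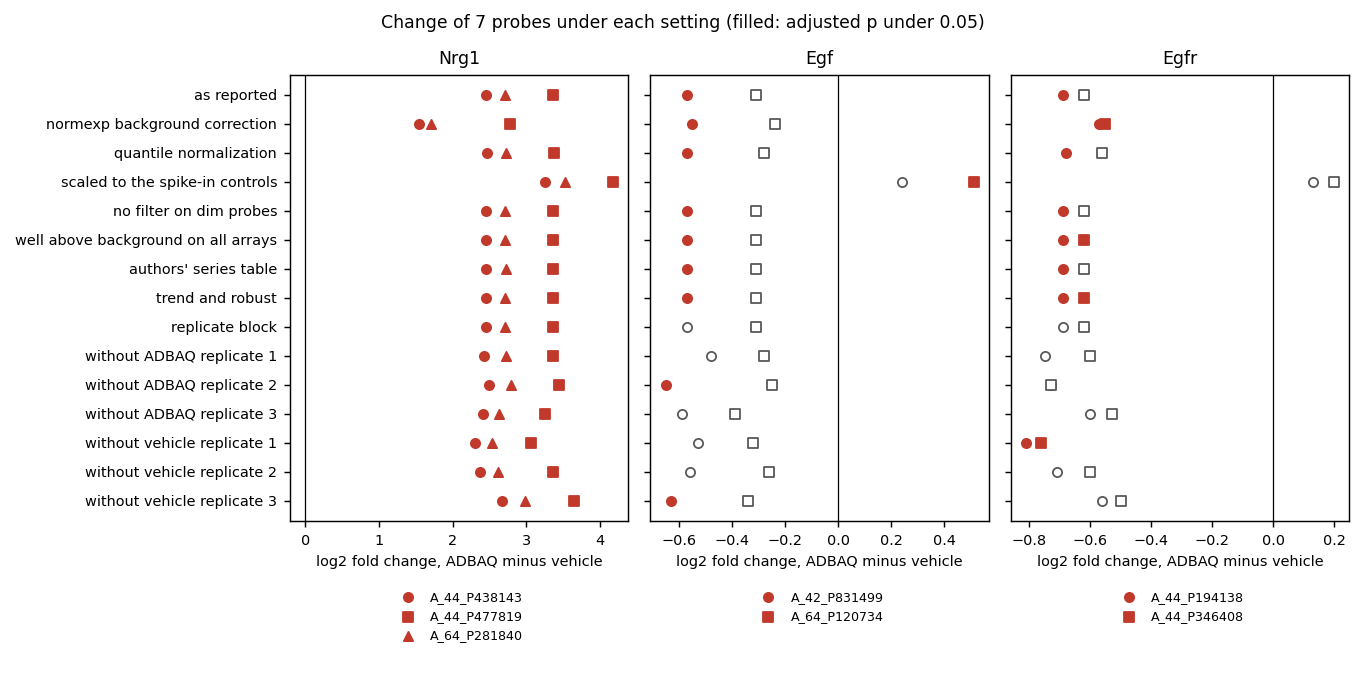
Log2 fold change, ADBAQ minus vehicle (horizontal axis), of the 7 probes of Nrg1, Egf and Egfr under each setting (rows), filled where the adjusted p was under 0.05 and with 1 marker shape per probe. Nrg1 stays filled in every row, between 1.54 and 4.18, whereas Egf and Egfr lose or gain the call in several rows and cross 0 on the spike-in scale.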

How the data were processed

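Liver RNA of 6 rats was hybridised to 1-colour Agilent arrays and read with Agilent Feature Extraction 10.7.1.1 (10.7 in the submitters' processing notes), per the file headers. Per the file headers, the deposited values are intensity values per spot (linear, background already removed within each array) with flags beside them. The authors' series table is a ratio of each processed signal to the 75th percentile of its array, as a comparison of every column with its scanner file showed. Its column medians were 0.0929, 0.0971 and 0.0952 for ADBAQ and 0.0967, 0.0970 and 0.0982 for vehicle, and it is no independent check.

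From the scanner files, the log2 of each processed signal was taken relative to the 75th percentile of its array, outlier spots (0 to 2 per array) were left out, and the fit over 38695 probes used lmFit and eBayes of limma 3.58.1 (R 4.3.3) with Benjamini-Hochberg adjustment. RefSeq accessions were paired with symbols through a table on GRCr8, while the array design is on an older build, so no gene coordinates beyond the printed promoter windows are given. Gene lists were counted at each gene's brightest tested probe. From each pathway list the called genes with the 3 largest changes and separate groups are named. The members and lists were chosen with earlier results of these data known. The procedure was tested on simulated data. The alternatives were normexp (offset 50, on the median spot and background signals), quantile normalization, spike-in scaling, no filter and an all-array filter, the series table, trend and robust, the mean of a gene's probes, the replicate number as a block and leaving out each array. Values of some listed genes are not reported here, and the stellate cell list is therefore summed without its brightest marker. The treatment protocol describes separate animals. The number of arrays limits the precision.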

Additional observations from a re-analysis of the deposited data

How the results depend on the processing

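All 3 Nrg1 probes kept their direction and call under each of 14 alternatives, at 1.54 to 4.18, with an adjusted p of at most 0.0198. Where all arrays gave 5 called member probes (3 higher, 2 lower), the fits without 1 array called 3 to 5, with 3 higher each time and 0 to 2 lower, and not always the same ones: without vehicle replicate 1 the Egf probe lost its call (adjusted p = 0.0653) and the second Egfr probe gained one (0.0394). They gave 1 to 2 called member genes where all arrays gave 2. Over the same fits 8 to 10 pathway genes and 3 to 8 markers were called, where all arrays gave 13 of each. Scaled to the spike-in controls, 14 member probes were called, 14 higher and 0 lower, with 6 member genes, 64 pathway genes and 45 markers, since that scaling lifts the median of all genes to 0.78. It turned the sign of Hgf (0.45), Met (0.74 and 0.70), Tgfa (0.78), Erbb3 (0.69), Hbegf (0.73), Egf (0.24 and 0.51), Egfr (0.20 and 0.13), Mst1 (0.32), Hgfac (0.21), Sdc4 (0.14) and Sdc2 (0.37). With normexp correction 21 pathway genes were called, and the signs of Erbb3 (-0.03), Erbb2 (-0.18) and Hbegf (-0.23) turned, none of them called. Its split of all calls was 34.5% higher against 44.5% without it, and 98.3% with the spike-in controls, 50.8% with quantile normalization and 32.4% with no filter. With no filter 4 member probes were lower, the added ones being dim probes of Areg and Erbb2, and with quantile normalization 8 markers were called. Counts over all genes were 2308 as reported, 4041 with normexp, 9449 with the spike-in controls, 3530 with no filter and 922 to 1565 without 1 array. Near 0, leaving out 1 array turned the sign of Erbb3 (-0.11 to 0.12), Tgfa (-0.21 to 0.13), Met (-0.33 to 0.11) and Hbegf (-0.23 to 0.03 and -0.10 to 0.21), never with a call. Where a call was lost, the cause was not tested.

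The replicate numbers are shared between groups, but rats with the same number did not deviate together (correlations of -0.03, -0.02 and 0.00), so the numbers pair nothing. With the replicate block 3 member probes were called, all Nrg1, and 0 lower, with 1 member gene, 8 pathway genes (Rhbdf2 not among them, adjusted p = 0.0504), 4 markers and 982 genes in all, and the residual degrees of freedom are fewer. A slide block was not run, since the slides coincide with the groups.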

Other observations

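Several genes in the lists had probes that differed in their call, which the counts at the brightest probe do not show. Ptpn11, encoding the phosphatase SHP2 that relays receptor signals to RAS, had 2 of 4 probes called higher while its brightest was not called (0.29 ± 0.10, adjusted p = 0.0828). Lrig2, of the LRIG family, had 1 of 3 probes called lower with its brightest at -0.33 ± 0.12 (adjusted p = 0.116). Gpc1, a heparan sulphate proteoglycan, had 1 probe called higher while its brightest stood at -0.04 ± 0.10, and Mapk3, the gene of ERK1, had 1 of 2 probes called lower with its brightest at -0.19 ± 0.09. These genes were named after their values were seen.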
